A study of Mus musculus with 18 samples.

Results

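The 6 livers described here came from tumour-bearing mice whose hepatocytes carry a Stat3 deletion, and they differed among themselves in interferon-inducible transcripts. They were chosen by title, and are 6 of the 18 livers in the series. They were ordered by a score, the mean of log2(CPM + 1) over Igtp, Iigp1, Irgm2 and Gbp7, where CPM is the count of a gene scaled to the effective total of its library. The score uses measured values of these same livers. The order and everything drawn from it within the 6 livers are therefore given as a description, with no test.

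Bulk liver RNA was profiled with a QuantSeq 3′ library, in which reads come from the end of each transcript near the poly(A) tail. The Stat3-deleted group was labelled AlbCre;Stat3f/f with PDAC (genotype Alb-Cre+/+ STAT3f/f, 6 livers). The other livers were from WT mice with PDAC (6 livers, called tumour-bearing WT here) and from WT mice titled Ctrl (6 livers). The labels name PDA.69, a T-cell-low pancreatic ductal adenocarcinoma line derived from KPC tumours, for all 3 groups, the control livers included. Control and tumour-bearing mice were therefore told apart by the titles, which the sample descriptions match. Cre under the albumin promoter acts in hepatocytes, and the other cells of the liver keep Stat3. A tumour-free Stat3-deleted group was not analysed here, so deletion and tumour cannot be told apart as the setting of the order. The label numbers of all 6 Stat3-deleted livers come before those of every WT liver. Genotype and run of label numbers therefore cannot be told apart in any comparison of Stat3-deleted with WT livers below. The labels give no sex, age or implantation site, and do not state that each library is a separate mouse. The p-values below measure the spread between these samples.

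Interferons bind receptors on the cell surface and, through JAK kinases, activate transcription factors of the STAT family. STAT dimers bind gamma-activated sites, and STAT complexes with IRF9 bind interferon-stimulated response elements in the promoters of inducible genes. Among these are the immunity-related GTPases and the guanylate-binding proteins, which act on vacuoles that hold intracellular microbes, together with antiviral sensors and the machinery that loads peptides on MHC class I. STAT3 is the main carrier of the IL-6 signal to the acute-phase genes of hepatocytes.

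The promoters of 3 ordering genes (Igtp, Irgm2, Gbp7) and of 2 genes that followed the order most steeply or exactly (Gm12250, Irgm1) are shown because they carry the letters of both or one of these elements. They are RefSeq sequences on build GRCm38.p6, 250 bases before to 50 after the annotated start, read 5′ to 3′ on the gene's strand. Capitals mark GAAANNGAAA, the core of the interferon-stimulated response element, and TTCNNNGAA, the core of the gamma-activated site. Both strands were searched. TTCNNNGAA is its own reverse complement, so each match stands on both strands, and overlapping matches were kept.
Igtp promoter (chr11:58199306-58199605, plus strand): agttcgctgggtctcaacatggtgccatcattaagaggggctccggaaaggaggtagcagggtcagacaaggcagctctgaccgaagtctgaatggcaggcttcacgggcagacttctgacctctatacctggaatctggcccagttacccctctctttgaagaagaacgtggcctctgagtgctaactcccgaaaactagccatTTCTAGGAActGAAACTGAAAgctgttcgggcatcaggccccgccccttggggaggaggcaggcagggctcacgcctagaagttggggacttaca
Irgm2 promoter (chr11:58214727-58215026, plus strand): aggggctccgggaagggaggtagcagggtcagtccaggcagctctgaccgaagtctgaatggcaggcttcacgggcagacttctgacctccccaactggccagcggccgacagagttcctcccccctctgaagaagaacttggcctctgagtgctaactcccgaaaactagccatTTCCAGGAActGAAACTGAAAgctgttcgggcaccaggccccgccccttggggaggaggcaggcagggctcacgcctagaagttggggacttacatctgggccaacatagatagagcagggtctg
Gbp7 promoter (chr3:142530086-142530385, plus strand): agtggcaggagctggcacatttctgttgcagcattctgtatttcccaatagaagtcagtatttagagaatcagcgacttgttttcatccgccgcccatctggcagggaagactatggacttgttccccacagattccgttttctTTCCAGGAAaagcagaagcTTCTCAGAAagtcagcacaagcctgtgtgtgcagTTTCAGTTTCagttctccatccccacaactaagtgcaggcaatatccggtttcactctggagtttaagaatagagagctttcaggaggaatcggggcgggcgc
Irgm1 promoter (chr11:48871371-48871670, minus strand): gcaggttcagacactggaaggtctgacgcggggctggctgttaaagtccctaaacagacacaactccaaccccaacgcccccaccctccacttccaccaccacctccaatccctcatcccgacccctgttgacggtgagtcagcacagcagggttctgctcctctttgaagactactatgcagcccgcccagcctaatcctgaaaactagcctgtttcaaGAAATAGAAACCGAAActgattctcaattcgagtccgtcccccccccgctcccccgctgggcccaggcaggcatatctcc
Gm12250 promoter (chr11:58183593-58183892, plus strand): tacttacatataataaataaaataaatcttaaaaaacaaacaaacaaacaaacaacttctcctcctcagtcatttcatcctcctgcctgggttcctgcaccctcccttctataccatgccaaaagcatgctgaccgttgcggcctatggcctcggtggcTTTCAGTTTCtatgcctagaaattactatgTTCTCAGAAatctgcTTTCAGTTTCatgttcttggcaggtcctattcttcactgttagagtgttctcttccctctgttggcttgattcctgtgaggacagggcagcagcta
Igtp holds GAAANNGAAA at positions -34 to -25 from its start and TTCNNNGAA at -45 to -37. Irgm2 holds the same pair at -64 to -55 and -75 to -67. Gbp7 holds GAAANNGAAA at -53 to -44 and TTCNNNGAA at -106 to -98 and -87 to -79. Irgm1 holds 2 overlapping GAAANNGAAA matches, at -30 to -21 and -24 to -15, and no TTCNNNGAA in this window. Gm12250, which RefSeq also lists as Irgb10, holds GAAANNGAAA at -91 to -82 and -46 to -37 and TTCNNNGAA at -61 to -53. The promoters of Ifi47, Irf1 and Gbp2, also followers, were searched in the same way and are not printed. Ifi47 held neither motif. Irf1 held no GAAANNGAAA, and held TTCNNNGAA in the window of its upstream start but not in that of its downstream start. Gbp2 held GAAANNGAAA and no TTCNNNGAA.

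Over all 27025 genes with a promoter in the RefSeq table, 3.99% held GAAANNGAAA and 9.55% held TTCNNNGAA. A gene counted here and below if the window of any of its annotated starts held the motif. Of the 98 described genes on the interferon lists, 71 had a promoter in the table, and 22 of them (31%) held GAAANNGAAA and 14 (19.7%) held TTCNNNGAA. Of the genes that followed the order, 47 had a promoter, and 5 (10.6%) and 7 (14.9%) held the motifs. Of the followers outside the lists, Gm12250 among them, 37 had a promoter, and 2 (5.41%) and 5 (13.5%) held them. Over all 8209 described genes, 6368 had a promoter, and 241 (3.78%) and 525 (8.24%) held them. Of the opposing genes, 32 had a promoter, and 0 and 3 (9.38%) held them. A match in letters is a description of the window and says nothing about binding.

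Stat3 itself was measured at 99.3, 113, 112, 132, 132 and 119 CPM in Stat3-deleted replicates 6, 3, 1, 4, 5 and 2, the order of rising score, against 163 to 264 CPM in tumour-bearing WT livers and 93.4 to 147 CPM in control livers. It was lower in all 6 Stat3-deleted livers than in any tumour-bearing WT liver (log2 fold change -0.85 with SE 0.14, edgeR quasi-likelihood adjusted p = 0.00043). A 3′ tag does not show whether the floxed exons were removed. Saa1, an acute-phase protein and a STAT3 target, had 10.7, 28.3, 17.6, 160.5, 21.2 and 18.8 CPM in the same order of Stat3-deleted livers, against 5486 to 48490 CPM in tumour-bearing WT livers and 115 to 558 CPM in control livers. Its paralog Saa2 had 1.033, 6.50, 1.77, 165.5, 8.34 and 3.88 CPM in Stat3-deleted livers, against 2519 to 39020 CPM in tumour-bearing WT livers. Neither gene ran along the order, and replicate 4 stood above the others for both. In all 6 livers, the one with the lowest interferon score included, Saa1 was below every tumour-bearing WT liver. Reads of Saa1 and Saa2 can be exchanged between near-identical copies.

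The scores were 6.48, 7.47, 8.56, 8.84, 8.87 and 9.01 in replicates 6, 3, 1, 4, 5 and 2 (8.20 ± 1.01, SD, n = 6), against 5.25 to 6.04 in tumour-bearing WT livers (5.70 ± 0.352, n = 6) and 5.45 to 6.84 in control livers (5.90 ± 0.519, n = 6). Replicates 6 and 3 stood apart from the rest, with gaps of 0.992 and 1.09 to the next liver. The other 4 lay within 0.448 of each other, and their order is weakly fixed. Under 8 other ways of scaling or scoring, replicate 6 was lowest, then 3, then 1, while replicates 4, 5 and 2 stood in 3 different orders. The lowest Stat3-deleted score was above the highest tumour-bearing WT score and within the range of the control livers.

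**Figure D1:**
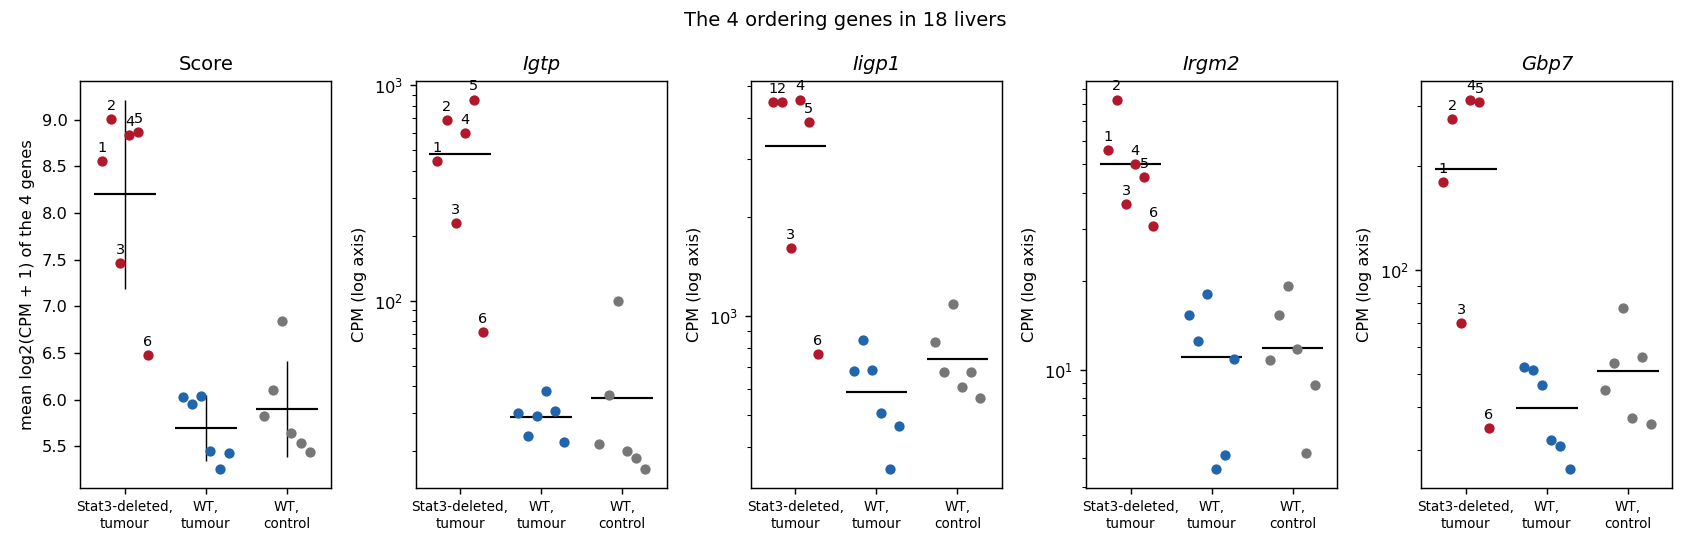
Interferon score (mean log2(CPM + 1) of Igtp, Iigp1, Irgm2 and Gbp7) and the CPM of each ordering gene on a log axis in the 18 livers, with Stat3-deleted livers at the left; points are livers, lines are group means and the bar on the score is the SD. Stat3-deleted scores run between 6.48 and 9.01, and tumour-bearing WT scores between 5.25 and 6.04.

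Igtp, an immunity-related GTPase (chr11:58199556-58207592, GRCm38.p6), had 71.4, 229, 443, 597, 853 and 683 CPM in replicates 6, 3, 1, 4, 5 and 2 (479 ± 292, SD, n = 6), against 29.0 ± 5.74 CPM in tumour-bearing WT livers (22.1 to 38.1, n = 6). Gbp7, a guanylate-binding protein, had 34.7, 70.3, 180, 312, 308 and 273.5 CPM (196.5 ± 122) in Stat3-deleted livers, against 39.9 ± 11.4 CPM (26.4 to 52.4) in tumour-bearing WT livers. These 2 genes were the steepest of the 4, with slopes of 1.29 ± 0.12 and 1.27 ± 0.10 log2 units per unit of score (SE, n = 6). Iigp1, another immunity-related GTPase and the most abundant of the set, had 766, 1606, 4459, 4546, 3896 and 4475 CPM (3291 ± 1668) in Stat3-deleted livers, against 587 ± 182 CPM (342 to 844) in tumour-bearing WT livers. Irgm2 (chr11:58214977-58222783), a GTPase that regulates the others, had 30.7, 36.5, 55.9, 50.2, 45.2 and 82.9 CPM (50.2 ± 18.4) in Stat3-deleted livers, against 11.1 ± 5.43 CPM (4.59 to 18.2) in tumour-bearing WT livers. Iigp1 was level across replicates 1, 4, 5 and 2, and Irgm2 had the shallowest slope, 0.40 ± 0.14.

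The difference between group means, Stat3-deleted minus tumour-bearing WT, was 4.05 (SE 0.50) for Igtp, 2.49 (SE 0.34) for Iigp1, 2.18 (SE 0.32) for Irgm2 and 2.30 (SE 0.38) for Gbp7, on the log2 scale. These genes were picked with that difference known, so it is given with no test. Replicate 6 lay above the highest tumour-bearing WT liver for Igtp and Irgm2, and within the tumour-bearing WT range for Iigp1 and Gbp7. In bulk RNA, fewer cells of a type and less RNA per cell cannot be told apart.

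Of the 8209 other genes that averaged 5 CPM or more in the 6 livers, 70 (0.853%) followed the order and 44 (0.536%) opposed it. A gene follows at a rank correlation (Spearman's rho) with the score of at least 0.94 and opposes at -0.94 or less, that is, with the livers in the same or reversed order or with 1 neighbouring pair exchanged. Of these genes, 11 and 6 held the exact order. There are 720 possible orders of 6 livers, so some of 8209 genes hold any given order with no link to the score. At the threshold value of 0.9429 stood 59 and 38 genes, and just outside it, at 0.8857, stood 69 and 50, among them Zbp1, Ifit1, Rsad2, Mx2, Psmb10, Ifitm3, Eif2ak2 and Serping1 on the interferon side. Applied to the 6 tumour-bearing WT livers and their own scores, the same rule gave 70 (0.834%) and 96 (1.14%) of 8395 genes. In the 6 control livers it gave 86 (1.033%) and 74 (0.889%) of 8323 genes. The number of genes following the order was thus near that in either WT group, and the number opposing it was below that in both.

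What the followers were differed from what the described genes were as a whole. Of the 98 described genes on 8 interferon lists, 15 (15.3%) followed the order and 0 opposed it. They made up 21.4% of the 70 followers, while the lists made up 1.19% of the genes described. With their own scores, 0 of 95 listed genes followed in tumour-bearing WT livers and 9 of 91 (9.89%) in control livers. The median rho of the listed genes was 0.69 in Stat3-deleted livers, 0.14 in tumour-bearing WT livers and 0.60 in control livers, beside -0.03 over all described genes in Stat3-deleted livers. The followers on the lists were also steep. Their median slope was 0.62 log2 units per unit of score, against 0.21 for the 55 followers outside the lists and -0.22 for the 44 opposing genes. Of 11 followers with a slope of at least 0.5, 10 were on the lists, and 61 of all described genes had such a slope. The other follower was Gm12250, also named Irgb10, which is not on the lists. Followers outside the lists are thus not all unrelated to interferon.

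**Figure D2:**
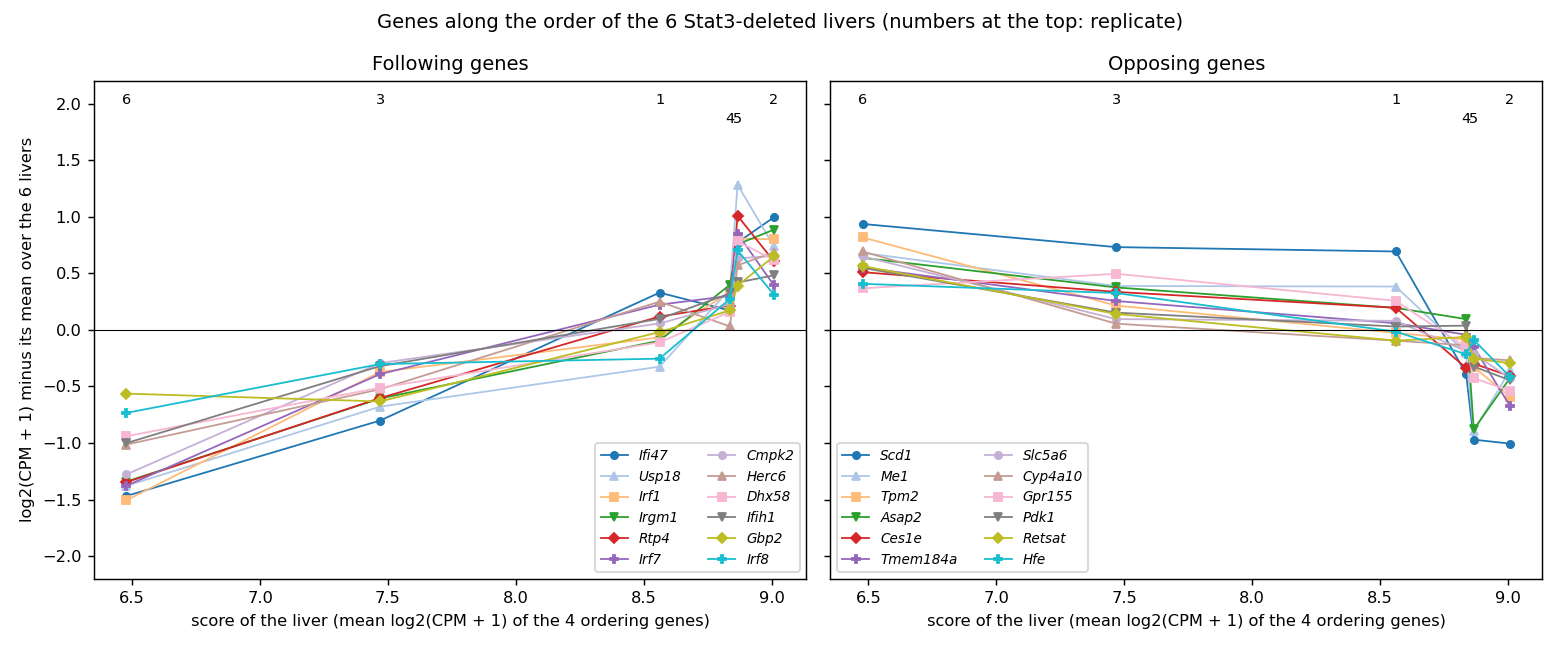
log2(CPM + 1) minus its mean over the 6 Stat3-deleted livers, plotted against the score of the liver, for 12 following genes (left) and 12 opposing genes (right); each line is a gene, each point a liver, and the replicate number stands at the top. In the followers replicates 6 and 3 lie below the rest, in some by little (Irf8 had 18.3 CPM in replicate 3 and 18.9 CPM in replicate 1). Several opposing genes, Scd1 first, separate replicates 6, 3 and 1 from replicates 4, 5 and 2.

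The immunity-related GTPases that the score did not use ran with it. Of 12 listed, 3 were ordering genes and 5 others were measured, all with a positive rho (median 0.83), and 2 followed the order. Irgm1, a regulator within the family, had 14.1, 24.1, 34.7, 49.3, 63.5 and 69.6 CPM in replicates 6, 3, 1, 4, 5 and 2, against 6.80 to 19.8 CPM in tumour-bearing WT livers. Its order was exactly that of the score, with a slope of 0.82 ± 0.11. Ifi47 had 58.2, 93.0, 205, 184, 279 and 326 CPM in Stat3-deleted livers, against 25.7 to 70.3 CPM in tumour-bearing WT livers, with a slope of 0.91 ± 0.12. For both genes, replicate 6 fell inside the tumour-bearing WT range and the other 5 livers stood above it.

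Tgtp1, another GTPase of the same family, had 0.258 and 0.481 CPM in replicates 6 and 3 (2 and 4 reads) and 9.81, 19.8, 26.5 and 16.8 CPM in replicates 1, 4, 5 and 2 (72, 173, 242 and 134 reads), against 0 to 1.18 CPM in tumour-bearing WT livers. In replicates 6 and 3 Tgtp1 was thus at the tumour-bearing WT level, and in the other 4 livers it was above every tumour-bearing WT liver. Gm12250, chosen after its values were seen because it is a predicted gene, had 4.65, 17.9, 56.3, 87.98, 160 and 137 CPM in Stat3-deleted livers, against 3.81 ± 1.69 CPM in tumour-bearing WT livers (SD, n = 6). Its slope of 1.82 ± 0.16 was above those of the 4 ordering genes. Genes of this family share sequence, so reads of Igtp, Irgm2, Gm12250, Tgtp1 and Tgtp2 may be split between copies.

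Of 11 listed guanylate-binding proteins, Gbp7 ordered the livers and 3 others were measured, all with a positive rho (median 0.77). Gbp2 followed the order, with 8.004, 7.58, 12.1, 13.99, 16.5 and 19.9 CPM in replicates 6, 3, 1, 4, 5 and 2 and a slope of 0.45 ± 0.12. Gbp3 had 8.39, 5.54, 8.45, 25.92, 23.03 and 19.14 CPM in Stat3-deleted livers, against 3.78 to 6.97 CPM in tumour-bearing WT livers, and split replicates 4, 5 and 2 from the others.

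The interferon transcripts themselves were at the edge of detection. Ifng had 1 read in 49777462 over the 6 Stat3-deleted libraries, 0 in 47615753 over the tumour-bearing WT libraries, which allows up to 0.063 CPM (3 counts over the group, counting error only), and 1 in 38862108 over the control libraries. The 20 type I and III interferon genes in the table together had 3 reads in the Stat3-deleted libraries, 4 in the tumour-bearing WT libraries and 0 in the control libraries, which allows up to 0.0772 CPM. A difference in ligand between the livers was not detectable at this depth.

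Of 16 measured receptors, JAKs, STATs and IRFs, 12 had a positive rho (median 0.46) and 3 followed the order. Irf1, an activator of interferon genes, had 30.6, 68.4, 84.8, 112, 156 and 155 CPM in replicates 6, 3, 1, 4, 5 and 2 (slope 0.83 ± 0.12). Irf7, the amplifier of type I interferon production, had 28.7, 57.8, 89.0, 93.9, 138 and 100.3 CPM (slope 0.74 ± 0.11). Irf8, a factor of myeloid cells, had 13.3, 18.3, 18.9, 27.8, 37.7 and 28.5 CPM (slope 0.45 ± 0.13). Replicate 5 was the highest liver for all 3 factors and replicate 6 the lowest. The other factors had a lower rho, 0.60 for Irf9, 0.49 for Irf2 and 0.37 for Irf3. Of the interferon receptor subunits, Ifngr1 had a rho of 0.77, Ifnar2 one of -0.14, Ifngr2 one of -0.43 and Ifnar1 one of -0.54. Of the kinases, Jak1 and Jak2 had a rho of 0.43 and Tyk2 one of -0.60.

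The antiviral list held the most followers, 6 of the 15. Of 27 measured, 26 had a positive rho (median 0.77). Usp18, which limits signalling at the type I receptor, had 7.62, 13, 16.9, 27.8, 53.5 and 36.4 CPM in replicates 6, 3, 1, 4, 5 and 2, against 5.44 to 8.95 CPM in tumour-bearing WT livers (slope 0.86 ± 0.22). Cmpk2, a mitochondrial nucleotide kinase, had 7.23, 15.3, 19.8, 22.4, 29.9 and 30.4 CPM in Stat3-deleted livers (slope 0.69 ± 0.09). Rtp4, an inhibitor of flavivirus replication, had 30.9, 52.4, 86.9, 93.0, 162 and 122 CPM (slope 0.80 ± 0.13). All 3 genes were lowest in replicate 6 and highest in replicate 5 or 2.

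The RNA sensor Ifih1, known as MDA5, had 16.1, 26.5, 35.7, 41.9, 44.9 and 46.9 CPM in Stat3-deleted livers in the exact order of the score (slope 0.56 ± 0.03), against 19.04 to 44.32 CPM in tumour-bearing WT livers. Replicate 6 thus lay below every tumour-bearing WT liver, and replicates 5 and 2 above. Its relative Dhx58, known as LGP2, had 4.39, 6.26, 8.58, 10.6, 16.8 and 14.9 CPM (slope 0.60 ± 0.13). Herc6, the mouse ligase for ISG15, had 16.8, 23.95, 41.7, 35.7, 52.3 and 56.8 CPM (slope 0.62 ± 0.10). Other antiviral genes put replicate 3 lowest. Zbp1, a sensor of Z-form nucleic acid, had 13.4, 11.7, 47.1, 31.3, 48.8 and 61.2 CPM, and Isg15 had 26.3, 16.2, 86.8, 39.1, 63.1 and 108.8 CPM in replicates 6, 3, 1, 4, 5 and 2. Of the 27 genes, 15 were lowest in replicate 6 and 8 in replicate 3, and 18 were highest in replicate 5.

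Most MHC class I genes had a positive rho with the score, and class II genes showed no common order. Of 15 measured class I and peptide-loading genes, 13 had a positive rho (median 0.66, median slope 0.19) and 1 followed the order. Of the 15, 8 were lowest in replicate 3 and 5 in replicate 6. Nlrc5, the transcriptional activator of class I genes, followed the order exactly, with 4.13, 5.78, 8.04, 9.18, 9.76 and 9.88 CPM in Stat3-deleted livers (slope 0.43 ± 0.02). The immunoproteasome subunit Psmb10 had 60.8, 86.6, 131, 124, 212 and 152.5 CPM, and Psmb8 had 59.5, 45.4, 120, 88.2, 133 and 133 CPM. H2-K1, the class I heavy chain itself, spanned only 1022 to 1410 CPM (slope 0.11 ± 0.06).

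Of 6 measured class II genes, 3 had a positive rho (median 0.06, and -0.06 with RLE size factors) and 0 followed. H2-Aa had 74.4, 87.2, 65.8, 77.4, 82.7 and 59.3 CPM in replicates 6, 3, 1, 4, 5 and 2, with no order along the score (rho -0.31). Among the regulators and effectors, Uba7, the activating enzyme for ISG15, followed the order with a slope of 0.42 ± 0.11. The 3 measured chemokines had a median rho of 0.54, and the T-cell attractant Cxcl9 had 30.3, 43.2, 41.0, 63.5, 56.3 and 43.5 CPM in Stat3-deleted livers.

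**Figure D3:**
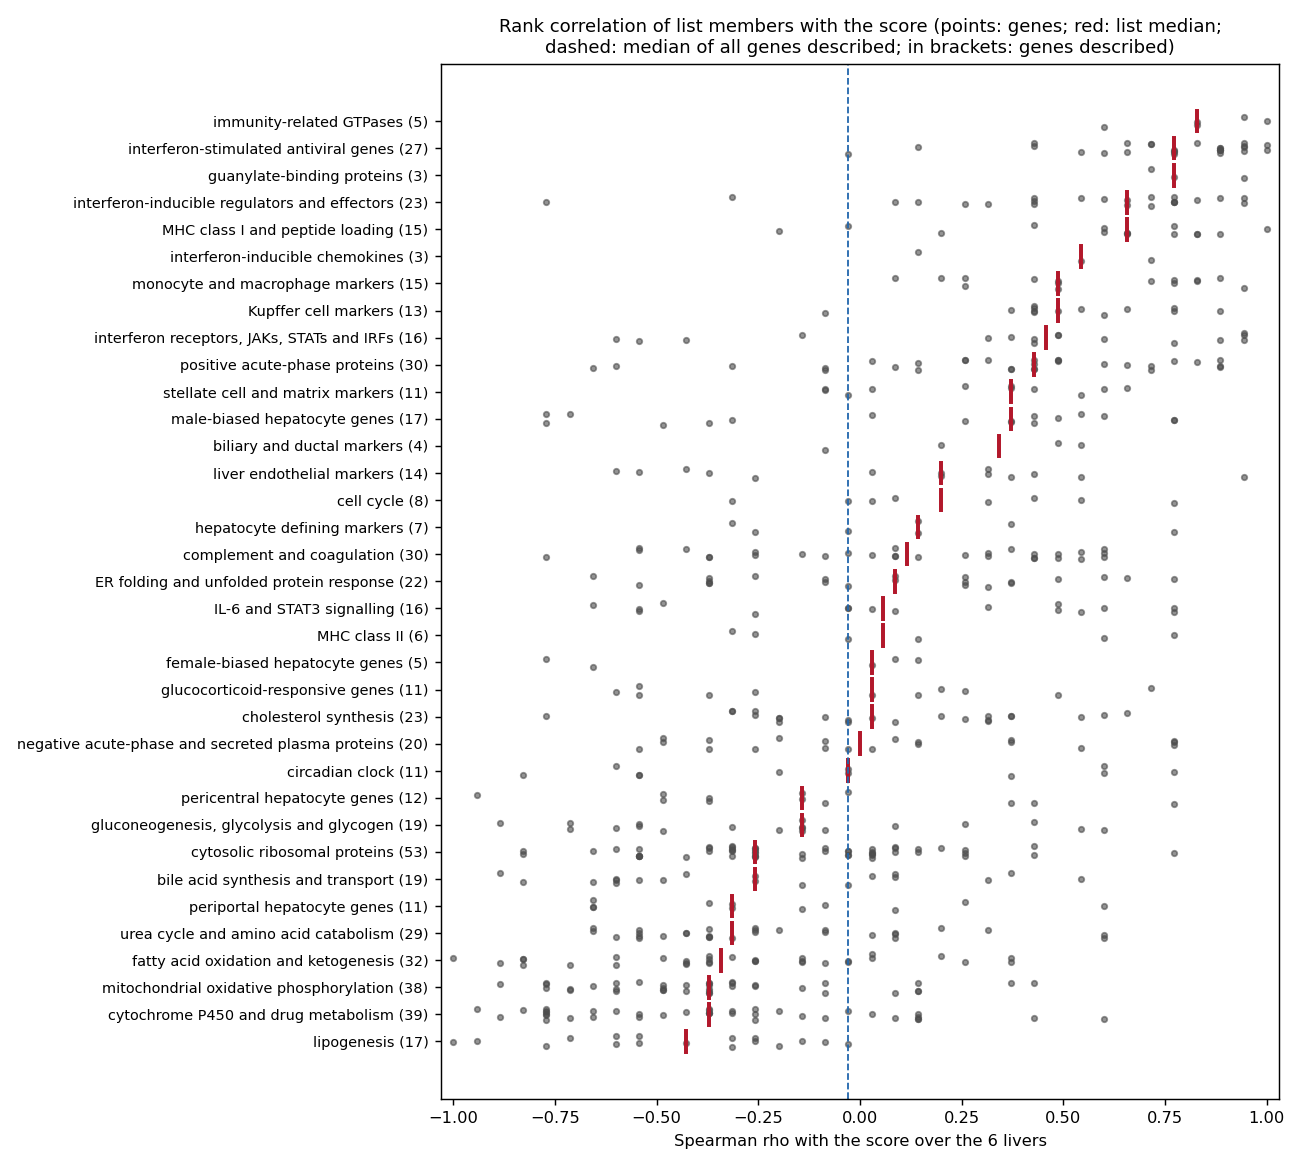
Spearman's rho with the score over the 6 Stat3-deleted livers for each measured member of the gene lists (points), with the list's median in red and the median of all 8209 genes, -0.03, as a dashed line. Immunity-related GTPases stand at a median of 0.83, MHC class II at 0.06 and lipogenesis at -0.43.

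Without replicates 6 and 3, the livers farthest from the median score, Pearson's r with the score for Iigp1 was -0.13 in the 4 remaining livers, against 0.99 in all 6. For Irf7 it was 0.41, against 0.96 in all 6. For Irgm1 r was 0.96 in both sets, and for Nlrc5 it was 0.96, against 0.996 in all 6. Over the 70 followers, r in those 4 livers ran between 0.04 and 0.998, with a median of 0.80. Requiring only the shared order (replicate 6, then 3, then 1, then the rest in any order) gave 122 genes (1.49%) in step and 88 (1.07%) reversed, with 19 and 0 on the interferon lists. Of the 70 followers, 47 met that order too, 12 of them on the lists (among them Cmpk2, Dhx58, Ifih1, Irf1, Irf7, Irf8, Irgm1, Nlrc5, Rtp4, Uba7 and Usp18). Of the 44 opposing genes, 19 met it.

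Set beside the tumour-bearing WT livers, the 6 livers ran between little and broad elevation of the interferon lists. In replicate 6, 12 of the 98 listed genes (12.2%) lay above the highest tumour-bearing WT liver and 17 (17.3%) below the lowest. In replicate 3, 23 (23.5%) lay above. In replicates 1, 4, 5 and 2, 49 (50%), 56 (57.1%), 69 (70.4%) and 54 (55.1%) lay above. Over all 8209 genes, 12.1% to 18.2% lay above in each of the 6 livers, with no run along the order. For replicate 6 the share of listed genes above the tumour-bearing WT livers was thus below that of all genes. Replicate 6 was the lowest liver for 55 of the 98 genes and replicate 3 for 22, and replicate 5 was the highest for 58 and replicate 2 for 17.

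**Figure D4:**
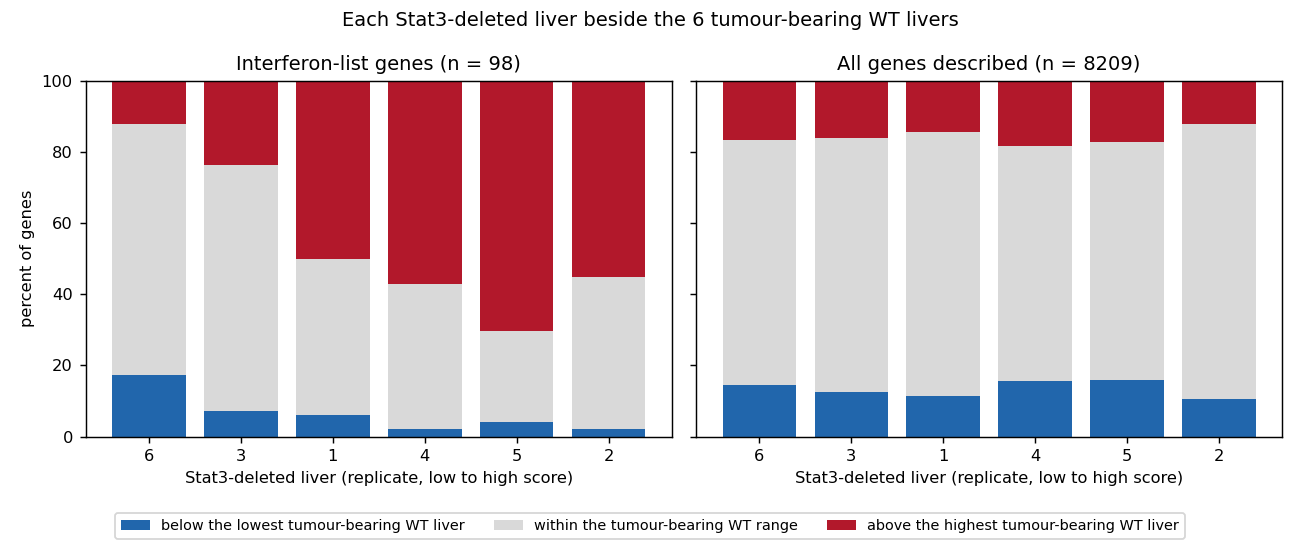
Percent of the 98 interferon-list genes, and of all 8209 described genes, that lay below, within or above the range of the 6 tumour-bearing WT livers, for each Stat3-deleted liver in order of score. The share of listed genes above the range is 12.2% in replicate 6 and 70.4% in replicate 5.

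The comparison of group means asked which genes in step with the order also differed between Stat3-deleted and tumour-bearing WT livers. With edgeR's quasi-likelihood test over 18 libraries and Benjamini-Hochberg adjustment, 8 of the 70 followers were higher in Stat3-deleted livers and 1 was lower, while 2.85% of all 11214 genes tested were higher and 3.23% lower. Of the genes that averaged 5 CPM or more in the 6 livers, 3.79% were higher and 3.01% lower. With the ordering genes included, 324 genes were higher and 362 lower, and with library totals in place of TMM the split was 424 and 270. The followers that were higher were Ifi47, Usp18, Irf1, Irgm1, Rtp4, Irf7, Herc6 and Gm12250. Gm12250 averaged under 5 CPM in tumour-bearing WT livers and was described only through its level in Stat3-deleted livers, so its difference is given with no test; 7 remain without it. The log2 fold change of Ifi47 was 1.87 (SE 0.32, adjusted p = 0.0006686), with 6 of 6 livers above the tumour-bearing WT mean. That of Usp18 was 1.82 (SE 0.32, adjusted p = 0.001012), also with 6 of 6 livers above. Irgm1 stood at 1.44 (SE 0.31, adjusted p = 0.006491), Irf7 at 1.42 (SE 0.28, adjusted p = 0.002524), Irf1 at 1.38 (SE 0.34, adjusted p = 0.01501) and Rtp4 at 1.32 (SE 0.31, adjusted p = 0.01077), and each of these was above the tumour-bearing WT mean in 5 of 6 livers, all but replicate 6. Gm12250 averaged 77.3 ± 62.9 CPM in Stat3-deleted livers and 3.81 ± 1.69 CPM in tumour-bearing WT livers (SD, n = 6 each). Herc6 stood at 0.85 (SE 0.23, adjusted p = 0.03142), a call lost in 5 of the 18 fits that leave out a library. The follower that fell was Ang, a secreted ribonuclease, at -1.14 (adjusted p = 3.097e-05).

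Being in step with the order and being higher than in tumour-bearing WT livers did not coincide gene by gene. Ifih1, exact in its order, averaged 35.3 ± 11.9 CPM in Stat3-deleted livers and 35.1 ± 9.62 CPM in tumour-bearing WT livers (SD, n = 6 each), and edgeR's adjusted p for the difference was 0.9899. Psmb10, just outside the threshold, rose by a log2 fold change of 1.18 (SE 0.23, edgeR's adjusted p = 0.002507) and Psmb8 by 1.35 (SE 0.28, adjusted p = 0.003868). Gbp3 rose by 1.54 (SE 0.37, adjusted p = 0.01338). Tgtp1 averaged 12.3 ± 10.7 CPM in Stat3-deleted livers and 0.503 ± 0.419 CPM in tumour-bearing WT livers (SD, n = 6 each). It passed the level filter only through the Stat3-deleted livers, and not in the fits without replicate 2, 4 or 5 of them, so its difference is given with no test.

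By list, and without the ordering genes, edgeR called Irgm1 and Ifi47 higher among 6 immunity-related GTPases. Tgtp1, on the same list, had the filter limit above and is not counted. Also called higher were 1 of 7 guanylate-binding proteins (Gbp3), 7 of 16 class I genes, 11 of 30 antiviral genes, 4 of 16 receptors, JAKs, STATs and IRFs, and 2 of 29 regulators, beside 2.85% of all genes. The lists were chosen with earlier results of these data known, so these counts are a description. With edgeR, 0 of 7 class II genes and 0 of 6 chemokines were called, with 0 at an unadjusted p under 0.05 in both lists, and DESeq2 called 0 of the 6 class II genes and 0 of the 3 chemokines looked at with it. No gene of these lists was called lower. The median log2 fold change was 0.95 for the immunity-related GTPases, 0.00 for the guanylate-binding proteins, 0.64 for class I, 0.57 for the antiviral genes, 0.11 for receptors, JAKs, STATs and IRFs, 0.14 for the regulators, 0.30 for class II and 0.11 for the chemokines, against -0.03 over all genes.

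Of 17 measured lipogenesis genes, 2 (Scd1 and Me1) opposed the order. Of 32 measured genes of fatty acid oxidation and ketogenesis, 1 did (Cyp4a10), beside 44 (0.536%) of all 8209 genes described. That share was below the 1.14% and 0.889% that opposed the score in tumour-bearing WT and control livers, so the opposing genes are given as a description. Scd1, the desaturase that makes monounsaturated fatty acids, had 2273, 1972, 1920, 908, 605.5 and 591 CPM in replicates 6, 3, 1, 4, 5 and 2, against 824 to 4543 CPM in tumour-bearing WT livers. Its slope was -0.70 ± 0.27, the one opposing gene beyond -0.5 (38 described genes were). Me1, malic enzyme, which supplies NADPH for fatty acid synthesis, had 74.2, 60.4, 60.2, 39.8, 24.2 and 35.7 CPM in Stat3-deleted livers (slope -0.45 ± 0.18). For both, the step fell between replicate 1 and replicates 4, 5 and 2, not between replicate 3 and the rest as for Iigp1 and Tgtp1. All 17 measured lipogenesis genes had a negative rho (median -0.43), also with library totals and with RLE size factors, though only Scd1 and Me1 opposed the order. Their summed level was 4383, 4112, 4158, 2514, 2421 and 2286 CPM in Stat3-deleted livers, against 2194 to 7162 CPM in tumour-bearing WT livers. Scd1 made up much of that sum, and without it the sums were 2105, 2134, 2235, 1601, 1810 and 1691 CPM in Stat3-deleted livers, against 1368 to 2614 CPM in tumour-bearing WT livers.

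Cyp4a10, a fatty acid hydroxylase and PPARα target, had 1137, 730, 658, 639, 592 and 583 CPM in Stat3-deleted livers (slope -0.34 ± 0.05), against 55.1 to 837 CPM in tumour-bearing WT livers. Retsat, retinol saturase, had 929.9, 693, 589, 602, 527 and 512 CPM in Stat3-deleted livers (slope -0.30 ± 0.04), against 114 to 352 CPM in tumour-bearing WT livers. Ces1e, a carboxylesterase, had 382, 339, 307, 212, 218 and 202 CPM (slope -0.35 ± 0.09). In Cyp4a10 and Retsat replicate 6 stood above the rest. Acot1, an acyl-CoA thioesterase that did not meet the rule (rho -0.83), had 131, 91.7, 66.6, 41.1, 35.2 and 54.3 CPM in Stat3-deleted livers, against 7.94 to 27.2 CPM in tumour-bearing WT livers.

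Other genes that opposed the order had lower levels. Pdk1, a kinase that restrains pyruvate dehydrogenase, had 42.6, 32.1, 29.4, 29.6, 22.8 and 20.9 CPM, Hfe, a regulator of iron sensing, had 33.1, 31.2, 24.4, 21.1, 23.1 and 18.3 CPM, and the tropomyosin Tpm2 had 24.3, 15.6, 13.1, 12.5, 10.4 and 8.51 CPM. As lists, the genes of fatty acid oxidation and ketogenesis stood at a median rho of -0.34 (-0.14 with library totals), cytochrome P450 genes -0.37, oxidative phosphorylation -0.37 and cytosolic ribosomal proteins -0.26, with 1, 1, 0 and 0 members opposing the order. The 30 measured acute-phase genes had a median rho of 0.43, with 0 following.

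Of the 44 opposing genes, 3 were higher in Stat3-deleted than in tumour-bearing WT livers by edgeR's test and 3 were lower, beside 3.79% higher and 3.01% lower of the genes that averaged 5 CPM or more in the 6 livers. Without each library in turn the number higher was 1 (leaving out replicate 3 or 6 of the Stat3-deleted livers or replicate 3 or 4 of the tumour-bearing WT livers) to 6 (leaving out replicate 5 or 6 of the tumour-bearing WT livers), and the number lower was 3. For Retsat the log2 fold change was 1.52 (SE 0.22, adjusted p = 0.0001127), for Ces1e 0.96 (SE 0.27, adjusted p = 0.03657) and for Brap 0.58 (adjusted p = 0.02602). The call for Ces1e was lost in 6 of the 18 fits that leave out a library. Lower were the co-chaperone Dnajc12 at -3.37 (SE 0.33, adjusted p = 6.825e-07), Id2 at -1.52 (adjusted p = 3.651e-05) and Ggt6 at -0.93 (adjusted p = 0.006482). Scd1 did not pass (log2 fold change -0.96, adjusted p = 0.1811).

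Macrophage markers were lowest in the liver with the lowest score and highest in replicate 5, without running along the order between them. The summed level of 13 Kupffer cell markers was 1007, 1540, 1489, 1443, 2293 and 1493 CPM in replicates 6, 3, 1, 4, 5 and 2, against 1048 to 2160 CPM in tumour-bearing WT livers. The monocyte and macrophage markers summed to 325, 488, 427, 449.7, 819.5 and 486 CPM in Stat3-deleted livers, against 365 to 764 CPM in tumour-bearing WT livers. Replicate 6, lowest in the score, was lowest in both sums, and replicate 5 was highest. Of 13 measured Kupffer markers 12 had a positive rho (median 0.49) and 0 followed the order, and a positive rho was found for all 15 measured monocyte and macrophage markers (median 0.49), of which Itgam, an integrin of myeloid cells, followed the order. Followers of other non-hepatocyte cells were Vav1 of leukocytes, Cdh5 of endothelium and the chemokine Cxcl13. Cxcl13 had 34.3 CPM in replicate 5 and 6.20 to 11.01 CPM in the other 5. Of 14 measured liver endothelial markers, 9 had a positive rho and 5 a negative one (median 0.20), and 1 followed the order. The part of these cells in the order was not tested.

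T and NK cell markers summed to 31.8, 26.6, 23.3, 27.4, 39.4 and 20.02 CPM in Stat3-deleted livers, within 16.02 to 37.6 CPM in tumour-bearing WT livers save for replicate 5, and did not run along the order. None of the T and NK cell, B cell or dendritic cell markers reached a mean of 5 CPM, and Cd79a of B cells was at 0 in all 6 livers. At the other end, replicate 6 carried adipocyte transcripts. On a list made after values were seen, Adipoq had 20.9, 0, 3.41, 0, 0.110 and 7.26 CPM in Stat3-deleted livers (162, 0, 25, 0, 1 and 58 reads), and the markers without Car3 summed to 161.6, 33.1, 47.0, 28.8, 28.2 and 78.8 CPM, against 32.7 to 128 CPM in tumour-bearing WT livers. Scd1 and Me1 are expressed in adipocytes as well as hepatocytes, and the part of this tissue in their values was not tested. Hepatocyte markers summed to between 103800 and 120100 CPM in the 6 livers. Of the library measures, rho with the score was 0.43 for the total count, 0.49 for the number of genes with a count and 0.77 for the share of counts in the 20 most abundant genes (n = 6), and the part of these was not tested.

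**Figure D5:**
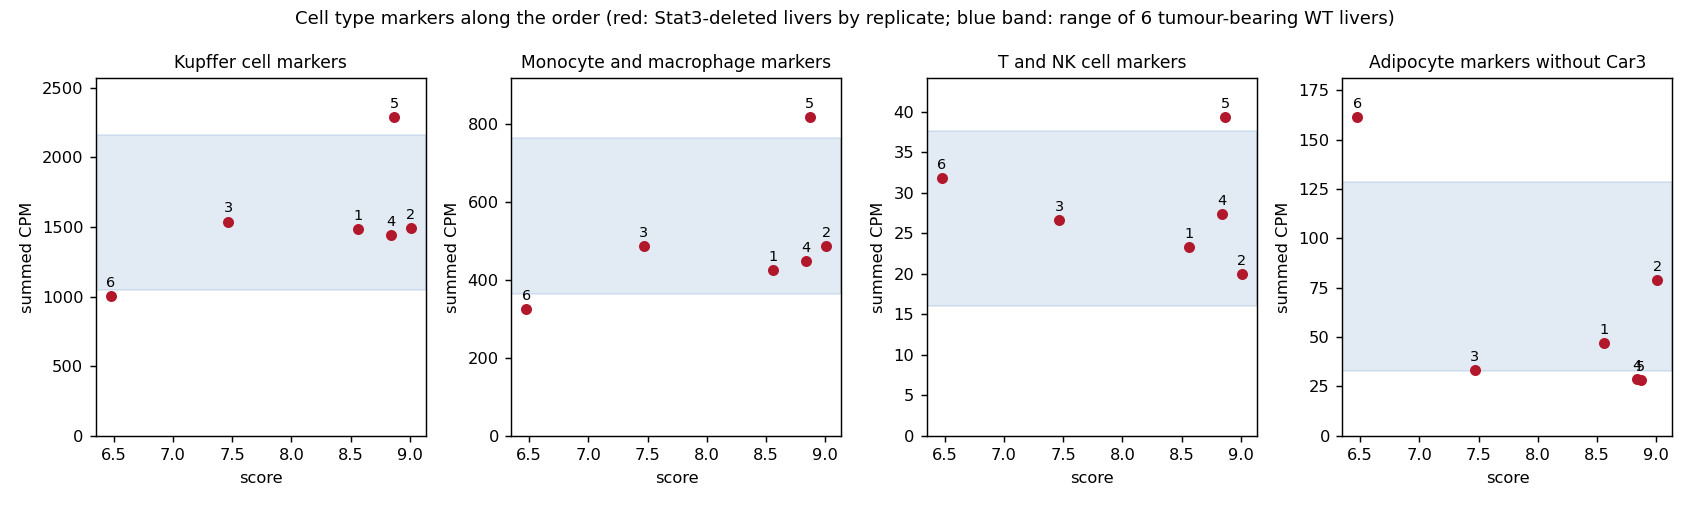
Summed CPM of Kupffer cell, monocyte and macrophage, T and NK cell and adipocyte markers in the 6 Stat3-deleted livers against the score, with the range of the 6 tumour-bearing WT livers as a blue band. Replicate 6, at the lowest score, has the lowest Kupffer sum (1007 CPM) and the highest adipocyte sum (161.6 CPM), and replicate 5 the highest macrophage sum (819.5 CPM).

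In the 12 WT livers, which the order did not use, the same score was fitted as a term beside the group, to ask which genes vary with it there. With edgeR's quasi-likelihood test, 2 of 10801 genes passed (0.0185% higher, 0% lower) and 518 had an unadjusted p under 0.05 (2.7% higher, 2.09% lower). They were Cxcl9, with a slope of 2.10 log2 units per unit of score (SE 0.30, adjusted p = 0.0195), and H2-Aa, with 1.40 (SE 0.20, adjusted p = 0.0195). Both were highest in control replicate 3, and without that liver their slopes were 1.32 and 0.88, with an adjusted p of 0.3445 for both. Without control replicate 1, 4, 5 or 6 both calls were also lost (adjusted p = 0.05726 to 0.1373), with slopes of 2.05 to 2.12 for Cxcl9 and 1.32 to 1.41 for H2-Aa. Without tumour-bearing WT replicate 3 the call for H2-Aa was lost (adjusted p = 0.05121).

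None of the 70 followers or 44 opposing genes passed in the WT livers with edgeR and TMM. In the same livers 1 follower passed with library totals and 1 without tumour-bearing WT replicate 4, and 3 passed with DESeq2, all higher, with 0 opposing genes in each. At an unadjusted p under 0.05, 10 followers were higher with the score and 0 lower, and among the opposing genes 0 and 1. Of the 15 followers on the interferon lists, 14 had a positive slope in WT livers (median 0.376), against 29 of the 55 other followers (median 0.00475). Of all 97 tested genes on the interferon lists, 77 had a positive slope (median 0.308), and of all 10801 genes 5285 did (median -0.00677). Control replicate 3 had the highest score of the WT livers (6.845), and these counts of slopes are not given without it. In tumour-bearing WT livers alone, the median rho of the listed genes was 0.14 and 0 of 95 followed. Gbp2 had a slope of 1.40 (SE 0.30, edgeR adjusted p = 0.1694) and Ifi47 one of 0.52 (SE 0.23, adjusted p = 0.9512) in WT livers, while Usp18 had 0.06 (SE 0.24, adjusted p = 0.988) and Irf7 had 0.08 (SE 0.26, adjusted p = 0.9831). Of the 44 opposing genes, 27 had a negative slope in WT livers (median -0.05), and Scd1 had one of 0.69 (SE 0.43, adjusted p = 0.9512).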

How the data were processed

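Per the labels' protocols, RNA from frozen livers was extracted with TRIzol and RNeasy and made into QuantSeq 3′ FWD libraries. Reads were aligned with STAR to mm10, per the submitters' processing notes; the sources used here do not give the STAR version, the counting tool or the strand setting, so overlapping and antisense genes cannot be told apart. The authors deposited 1 table of raw counts per gene symbol. Of 24421 symbols, 27 turned into date numbers were left out. Totals ran between 5212265 and 9545442 counts per library. No pair of libraries agreed within sampling noise (smallest chi-square per degree of freedom 8.26).

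From the counts, CPM on TMM-scaled totals were computed (edgeR 4.0.16, R 4.3.3), with 1 added before log2 in scores and slopes, so slopes of low genes are understated. Rank correlations used the 6 Stat3-deleted livers and genes that averaged 5 CPM or more. Group means (18 libraries, 1 coefficient per group) and the score in 12 WT livers (group and score) were tested with edgeR's quasi-likelihood test after filterByExpr, two-sided, with Benjamini-Hochberg adjustment at 0.05 over all genes tested. Scripts were tested on simulated data. DESeq2 1.42.0, other scalings, filters, scores, thresholds and blocks, and leaving out each library, were alternatives. Named genes were the ordering genes, Stat3, Saa1, Saa2, the 15 steepest followers and opposing genes (predicted genes left out), all measured GTPases and guanylate-binding proteins, up to 6 members of other lists by rho, and genes called in WT livers; any other gene was named after its values were seen. The members and lists were chosen with earlier results of these data known. Replicate numbers are shared between groups but were not found to pair samples. Results for some genes are not reported here.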

Additional observations from a re-analysis of the deposited data

Results flagged for a closer look

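In 64 sets of 6 values, 1 liver stood far from its group in 8, where chance flags about 1 in 20 groups. In control livers, replicate 3 had 99.06 CPM of Igtp against 16.54 to 36.61 CPM in the other 5, 245.7 CPM of Cxcl9 against 20.02 to 47.87 CPM, and 147.7 CPM of H2-Aa against 24.36 to 58.71 CPM. Without this liver the slopes of Cxcl9 and H2-Aa on the score in WT livers were 1.32 and 0.88, and neither was called. Among Stat3-deleted livers, replicate 4 had 160.5 CPM of Saa1 against 10.72 to 28.28 CPM in the other 5 and 165.5 CPM of Saa2 against 1.033 to 8.335 CPM. Replicate 5 had 34.33 CPM of Cxcl13 against 6.197 to 11.01 CPM, and its monocyte and macrophage markers summed to 819.5 CPM against 325.1 to 488.2 CPM. Replicate 6 had 1137 CPM of Cyp4a10 against 583.1 to 730.0 CPM. No cause was tested for any of these values.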

How the results depend on the processing

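The order rests on 6 livers, of which 4 have near-equal scores, so counts of followers and opposing genes move with small changes. Beside 70 following and 44 opposing, they were 37 and 27 at a mean of at least 20 CPM, 169 and 132 with a score without Irgm2 (27 and 6 shared with the 70 and 44), 139 and 94 at a rho of 0.88, 11 and 6 at the exact order, and 122 and 88 for the order shared by all scores, an alternative chosen after seeing the data. Leaving out each Stat3-deleted liver in turn gave 38 (without replicate 6; 41 without replicate 1) to 167 (without replicate 2) following and 38 (without replicate 3) to 122 (without replicate 2) opposing. With 5 livers the threshold requires the exact order. The counts stayed within 1.5 times under library totals (67 and 50, of which 31 and 10 shared), RLE size factors (69 and 47, of which 61 and 39 shared), at least 1 CPM (97 and 66), thinned counts (68 and 47, of which 49 and 26 shared) and the other 4 scores. The genes themselves changed more than their number. Without Igtp in the score, 59 followed and 43 opposed, of which 20 and 13 were shared with the 70 and 44. The same numbers were found with each ordering gene scaled to SD 1. Without Iigp1 or Gbp7 all 70 and 44 were kept. The cause was not tested.

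In WT livers, 2 genes varied with the score; 19 did with DESeq2 (562 at an unadjusted p under 0.05), 9 with library totals, 6 with no filter, 9 in control livers alone, 0 in tumour-bearing WT livers alone (798 unadjusted), 0 with a replicate block (161 unadjusted), 0 with runs of label numbers as a block (210 unadjusted), and 0 to 13 without each liver in turn, 0 being the count without control replicate 1, 3, 4, 5 or 6 and 13 that without tumour-bearing WT replicate 4. Fewer samples enter the fits of 1 group. Followers higher in Stat3-deleted livers numbered 7 to 10 without each library. These counts of followers, and that with the replicate block, were taken over all 70, Gm12250 included. Opposing genes lower numbered 3 in every such fit, and opposing genes higher 1 to 6 (beside 3, and 1 also with the 2 groups alone). Genes called numbered 469 (without tumour-bearing WT replicate 4) to 906 (without tumour-bearing WT replicate 6), beside 686. The replicate block gave 709 calls and 11 followers higher. Same-numbered samples' deviations correlated between -0.101 and 0.234 for the Stat3-deleted and tumour-bearing WT pairs, so the numbers were not taken as pairs. Of the named genes' log2 fold changes under the alternatives, 1194 kept their side of the threshold and 52 lost it, and of the slopes 2755 moved by less than their error and 311 by more; no direction that had been called reversed.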
